A study of Mus musculus with 2 samples.

Results

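The transcripts described here are of 9 genes used as markers of the alveolar type 2 cell, the epithelial cell that makes pulmonary surfactant. Some of the 9 are also expressed in other cells, and all were measured in sorted alveolar macrophages. They were chosen by name, as the rows of the deposited table whose platform annotation gives exactly 1 gene symbol and whose symbol is Sftpa1, Sftpb, Sftpc, Sftpd, Napsa, Lyz1, Lamp3, Slc34a2 or Etv5. All 9 were found, on 10 rows (probe sets), among 22180 genes in all. The study compared alveolar macrophages of adult C57BL6 mice on Affymetrix microarrays, with 1 array labelled PIKfyve KO and 1 labelled wild type. The knockout sample carried floxed Pikfyve alleles with LysM-Cre, and the wild type sample carried the floxed alleles without it. LysM-Cre expresses the recombinase from the lysozyme 2 locus, which is active in myeloid cells and also in type 2 cells. Whether Pikfyve was deleted in type 2 cells was not tested. Cells from digested lungs of littermates were sorted as Siglec-F+ and CD11c+ cells that excluded DAPI; the number of mice behind each RNA is not stated in the labels.

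Surfactant is a film of phospholipid and protein that lowers surface tension in the alveolus. Type 2 cells assemble it in lamellar bodies, secrete it and take much of it back, and alveolar macrophages engulf and degrade the rest. Of its proteins, SP-A and SP-D are soluble collectins of innate immunity, and SP-B and SP-C are small hydrophobic proteins of the film. PIKfyve, the lipid kinase deleted here, makes phosphatidylinositol 3,5-bisphosphate on endosomes and lysosomes.

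There were no replicates, so no value below has an error and no difference was tested. Values are the deposited log2 signals, and each difference is the knockout-labelled array minus the wild type-labelled array. Because different rows hold different probes, signals are compared between arrays and not between genes. Background was set at the 95th percentile of 1432 olfactory, vomeronasal and taste receptor genes, which was 5.31 in the knockout-labelled array and 5.37 in the wild type-labelled array. The local spread is a scaled median absolute deviation of the differences among genes of similar level, and it ranged from 0.203 to 0.332. Noise and true differences both contribute to it.

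The row of Pikfyve did not separate the arrays in the direction of their labels. It read 5.95 in the knockout-labelled array and 5.68 in the wild type-labelled array, 0.27 higher, where the local spread was 0.259. The position of its probes with respect to the floxed exons is not known here, so this row does not check the labels. Every direction below therefore rests on the labels, and the arrays are called knockout-labelled and wild type-labelled. All 18 measured markers of alveolar macrophages lay above background on both arrays. Those with the largest differences were the zinc transporter gene Slc39a2 (1.67), the protease gene Ctsk (1.32), the keratin gene Krt79 (-0.98) and Siglecf (-0.73). Siglecf, which encodes one of the sorted proteins, read 8.54 in the knockout-labelled array and 9.27 in the wild type-labelled array. Itgax, which encodes CD11c, read 10.39 in the knockout-labelled array and 10.03 in the wild type-labelled array.

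The rows of the surfactant and type 2 transcripts split into a group above background, called detected here, and a group below it. A row below background does not show that its transcript was absent, since how well its probes read it is not known here. The 2 rows of Etv5 lay on either side of background. Sftpa1, Sftpc, Napsa, Lyz1 and Etv5 lay above background on both arrays, and Sftpb, Sftpd, Lamp3 and Slc34a2 lay below it on both. Of the detected 5, Sftpa1, Sftpc and Lyz1 read at least 1.5-fold higher in the knockout-labelled array, Napsa read at least 1.5-fold lower, and Etv5 read 1.18-fold higher. Among the 12516 genes whose mean reached the median of all rows, 4.45% read higher by 1.5-fold or more in the knockout-labelled array and 2.66% read lower by as much, beside 3 and 1 of the 9 transcripts. None of the 9 reached a 2-fold difference, while 0.927% of those genes were 2-fold higher and 0.336% were 2-fold lower. By any amount, 5 of the 9 read higher and 4 lower, beside 48.9% and 49.6% of those genes. The median difference was 0.22 over the 9 and 0.00 over the 12516 genes, and the value of 0.22 is that of Lamp3, which was below background on both arrays. Of the 9, 7 passed that filter, all but Lamp3 and Slc34a2.

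**Figure D1:**
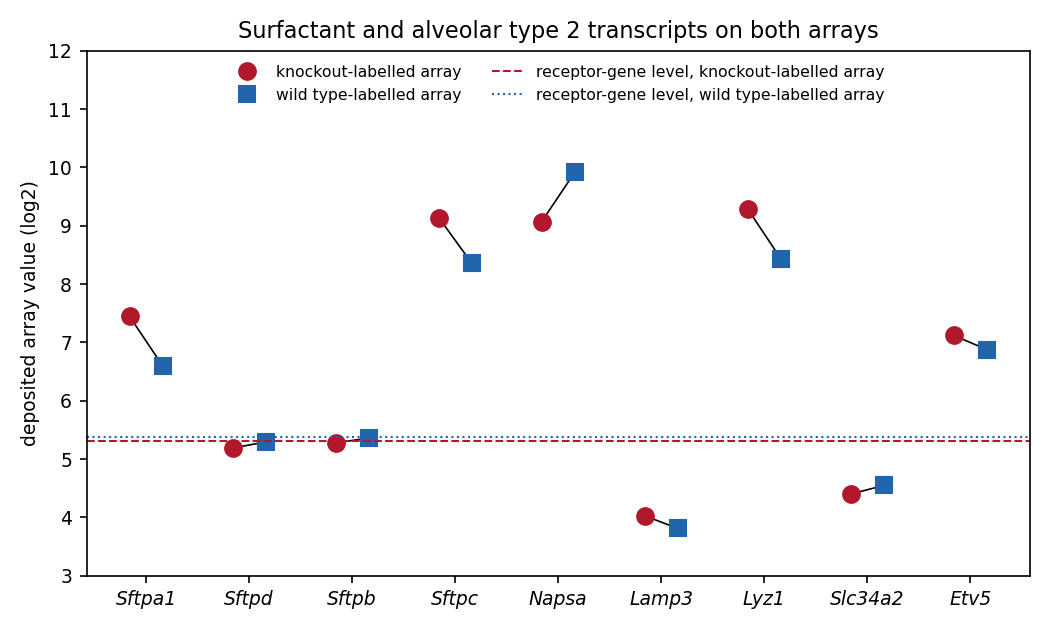
Deposited log2 value (vertical axis) of each of the 9 transcripts in the knockout-labelled array (red circles) and the wild type-labelled array (blue squares), 1 array each, with a line joining the pair. The dashed and dotted lines mark the receptor-gene background of the knockout-labelled (5.31) and wild type-labelled (5.37) arrays; Sftpa1, Sftpc, Napsa, Lyz1 and Etv5 lie above them and the other 4 below.

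The collectin gene Sftpa1 encodes SP-A, which opsonises microbes and takes part in the structure of secreted surfactant. Its row read 7.45 in the knockout-labelled array and 6.60 in the wild type-labelled array, a 1.80-fold difference. The difference of 0.84 was 2.96 times the local spread of 0.285. Sftpd encodes the other lung collectin, SP-D, and read 5.19 in the knockout-labelled array and 5.29 in the wild type-labelled array. Both values lay within 0.12 of background, so this row did not read SP-D transcript above the receptor genes on these arrays, and no fold is given.

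Sftpa1, Mbl1 and Sftpd are neighbouring protein-coding genes in the RefSeq annotation, all of the collectin family. Mbl1, a mannose-binding lectin made mainly by the liver, lies between the surfactant genes and read 4.91 in the knockout-labelled array and 4.74 in the wild type-labelled array, below background on both. Of the 3 neighbours, only Sftpa1 was above background on either array. Of the other collectin genes, the scavenger-type Colec12 read 6.32 in the knockout-labelled array and 6.36 in the wild type-labelled array, and Mbl2, Colec10 and Colec11 lay below background on both.

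The hydrophobic protein genes also differed in detection. Sftpc encodes SP-C, made as a membrane-spanning proprotein by type 2 cells and widely used as their defining marker. It read 9.14 in the knockout-labelled array and 8.36 in the wild type-labelled array, a 1.72-fold difference, and its difference of 0.78 was 2.49 times the local spread of 0.313. Sftpb encodes SP-B, a saposin-like protein needed for lamellar bodies and for the surface film. Its row read 5.27 in the knockout-labelled array and 5.36 in the wild type-labelled array, on the edge of background and just below it in both. The row of a defining type 2 transcript was thus well above background on both arrays while that of another was at background on both.

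No measured relative of these proteins by domain, saposin-like or BRICHOS, was 1.5-fold apart. Psap, the precursor of the lysosomal saposins, read 11.77 in the knockout-labelled array and 11.60 in the wild type-labelled array. Itm2b, which shares the BRICHOS domain of proSP-C and is expressed in many tissues, read 12.73 in the knockout-labelled array and 12.68 in the wild type-labelled array. Lgi3 lies next to Sftpc in the RefSeq annotation and read 4.84, below background, in the knockout-labelled array and 5.60 in the wild type-labelled array. Measured from background Lgi3 was at least 1.23-fold lower. As read, its difference of -0.77 was 2.95 times the local spread of 0.260. Its wild type-labelled reading, however, lay only 0.23 above background. The opposite direction of Lgi3 and Sftpc thus rests on a reading near background.

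The promoters of Sftpa1 and Sftpb are shown because both are surfactant genes bound in lung epithelium by NKX2-1, the homeobox factor of that lineage, and because their transcripts read differently on these arrays. The 250 bases before each start site are given 5′ to 3′ on the strand of the gene, from RefSeq, build GRCm38.p6. Capitals mark CTCAAG, letters found within sequences that NKX2-1 binds, searched on both strands. The Sftpa1 stretch is chr14:41131538-41131787 (plus strand) and the Sftpb stretch is chr6:72304360-72304609 (plus strand).
Sftpa1: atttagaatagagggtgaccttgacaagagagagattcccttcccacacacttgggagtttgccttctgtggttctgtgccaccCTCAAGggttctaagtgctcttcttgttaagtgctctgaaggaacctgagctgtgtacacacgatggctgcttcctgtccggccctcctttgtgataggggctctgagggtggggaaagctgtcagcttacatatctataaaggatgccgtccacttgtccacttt
Sftpb: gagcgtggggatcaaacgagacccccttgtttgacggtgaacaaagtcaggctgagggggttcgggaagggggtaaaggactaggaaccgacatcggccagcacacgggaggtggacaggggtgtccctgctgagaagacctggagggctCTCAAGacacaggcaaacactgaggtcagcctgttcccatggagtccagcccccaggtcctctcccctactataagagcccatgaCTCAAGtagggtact
The motif begins 166 bases before the start of Sftpa1, and 100 and 15 bases before that of Sftpb. Of 6 genes among the 9 that matched the promoter table, with 7 promoters, these 2 held it, against 13.3% of the 32851 promoters of the same length in the table. Sftpc, Sftpd and Napsa had no entry.

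Nkx2-1 itself read 4.73 in the knockout-labelled array and 5.08 in the wild type-labelled array, below background on both. Foxa1, a forkhead factor of the same epithelium, was also below background on both, at 5.07 in the knockout-labelled array and 4.85 in the wild type-labelled array. Its relative Foxa2 read 5.36 in the knockout-labelled array and 5.59 in the wild type-labelled array, just above background on each. Nkx2-1, Foxa1 and Foxa2 were thus at or near background on both arrays, unlike Cebpa and, by the mean of its rows, Etv5, factors of type 2 cells that were well above it.

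Of Napsa and Lamp3, only Napsa was detected, and it was the only transcript of the 9 that read at least 1.5-fold lower. Napsa encodes napsin A, an aspartic protease that helps to cut proSP-B and proSP-C in type 2 cells. It read 9.07 in the knockout-labelled array and 9.91 in the wild type-labelled array, and was 1.80-fold lower. The difference of -0.84 was 2.85 times the local spread of 0.296. Its direction was opposite to that of Sftpa1, Sftpc and Lyz1, with nearly the same size. Which cells the Napsa signal came from was not tested.

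No other aspartic protease gene of the 5 measured was 1.5-fold apart. Ctsd, the lysosomal cathepsin D of macrophages, read 12.94 in the knockout-labelled array and 12.70 in the wild type-labelled array. Bace1 differed by -0.01, and Ctse, an endosomal protease, was below background on both. Ctsh, a cysteine protease that also acts on proSP-B, read 10.97 in the knockout-labelled array and 11.06 in the wild type-labelled array.

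Lamp3 encodes DC-LAMP, found in the lamellar bodies of type 2 cells and in the lysosomes of mature dendritic cells. It read 4.03 in the knockout-labelled array and 3.81 in the wild type-labelled array, more than 1 log2 unit below background on both. Of its relatives, Lamp5 was below background on both arrays, while the lysosomal Lamp1, Lamp2 and Cd68 of macrophages were far above it and read slightly higher in the knockout-labelled array. Lamp1 read 10.89 in the knockout-labelled array and 10.81 in the wild type-labelled array and Lamp2 read 10.74 in the knockout-labelled array and 10.55 in the wild type-labelled array. Cd68, the macrophage member of the family, read 12.91 in the knockout-labelled array and 12.76 in the wild type-labelled array. None of these reached 1.5-fold.

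Lyz1 showed the largest difference among the 9, though Sftpa1 at 0.84 and Napsa at -0.84 were nearly equal to it in size. Lyz1 encodes a lysozyme, an enzyme that cleaves bacterial cell walls and is made by Paneth cells of the mouse intestine and in some lung epithelial cells. It read 9.28 in the knockout-labelled array and 8.44 in the wild type-labelled array, a 1.80-fold difference. The difference of 0.85 was 2.71 times the local spread of 0.313.

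Its neighbour Lyz2, the lysozyme of macrophages and of type 2 cells and the locus that drives LysM-Cre, read 12.83 in the knockout-labelled array and 12.84 in the wild type-labelled array. The difference of -0.01 lay well inside the local spread of 0.203 at that level. Whether the LysM-Cre allele alters the transcript that the Lyz2 row reads is not known here. Like that of Pikfyve, the Lyz2 row therefore does not check the labels. Both readings lay near the top of the scale, where the highest row read 13.78 in the knockout-labelled array and 13.86 in the wild type-labelled array. The differences of the neighbours were thus 0.85 for Lyz1 and -0.01 for Lyz2, and with 1 array each the gap between them was not tested. Of the 10 measured lysozyme family genes, 2 read at least 1.5-fold higher, Lyz1 and Lyzl4, and 1, below background on both arrays, read at least 1.5-fold lower. Lyzl4 read 6.07 in the knockout-labelled array and 5.24, below background, in the wild type-labelled array. Measured from background Lyzl4 was at least 1.62-fold higher.

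The promoters of these lysozyme genes are shown because the genes are closely related duplicates. The printed bases lie before the start site, so their likeness does not show whether the transcripts, or probes for them, can be told apart. The 250 bases before each start are given 5′ to 3′ on the strand of the gene, from RefSeq, build GRCm38.p6, and capitals mark the longest run that both share. The Lyz1 stretch is chr10:117292869-117293118 and the Lyz2 stretch is chr10:117282273-117282522, both on the minus strand.
Lyz1: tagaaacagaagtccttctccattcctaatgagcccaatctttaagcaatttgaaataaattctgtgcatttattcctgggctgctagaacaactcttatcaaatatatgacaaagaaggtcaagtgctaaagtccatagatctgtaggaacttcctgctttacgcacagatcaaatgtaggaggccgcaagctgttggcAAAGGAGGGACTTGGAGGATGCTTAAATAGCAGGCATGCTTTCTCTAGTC
Lyz2: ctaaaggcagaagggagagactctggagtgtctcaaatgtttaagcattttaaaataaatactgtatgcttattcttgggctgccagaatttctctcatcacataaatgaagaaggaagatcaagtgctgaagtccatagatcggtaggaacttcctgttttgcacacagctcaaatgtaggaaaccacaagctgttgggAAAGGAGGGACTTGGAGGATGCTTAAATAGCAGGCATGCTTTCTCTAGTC
The shared run of 50 bases ends at the start site in both genes. Over the whole stretch 200 of 252 aligned positions, or 79.4%, were identical, and of the first 50 transcribed bases 49 were identical. The bases covered by the probes of either row are not known here, so how much Lyz2 transcript the Lyz1 row also reads was not tested.

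**Figure D2:**
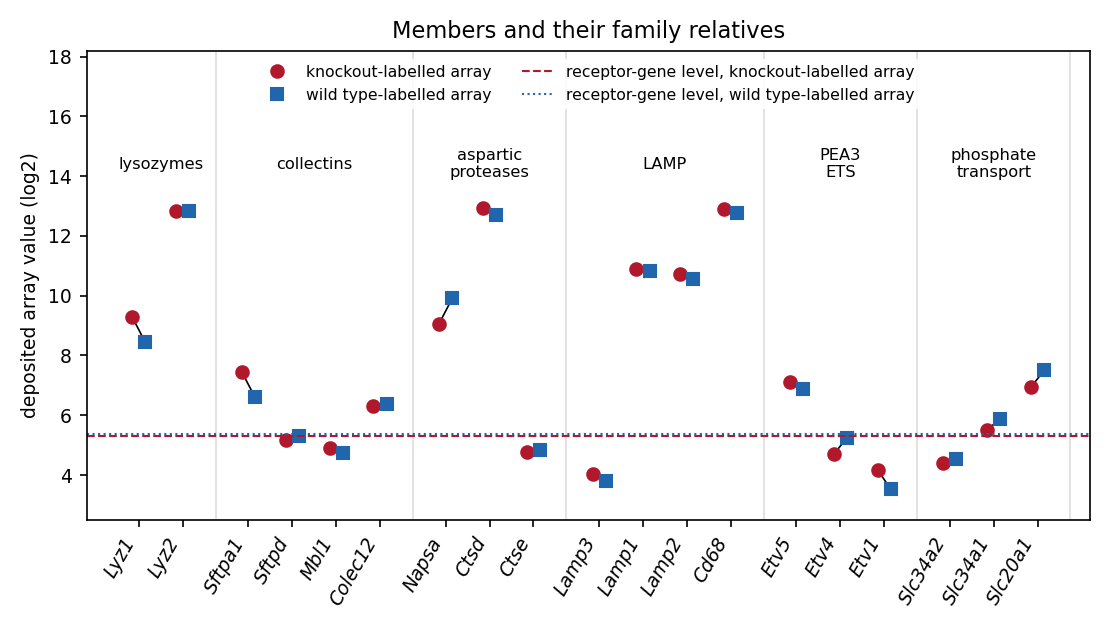
Deposited log2 value (vertical axis) of members and their family relatives in the knockout-labelled array (red circles) and the wild type-labelled array (blue squares), 1 array each, with a line joining each pair and the receptor-gene background of each array as dashed and dotted lines. Lyz1 and Sftpa1 sit higher in the knockout-labelled array and Napsa lower, while Lyz2, at 12.83 and 12.84, and Lamp1 and Lamp2 lie almost level.

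Slc34a2 encodes the sodium-phosphate cotransporter NaPi-IIb, which takes up phosphate at the apical surface of type 2 cells. It read 4.40 in the knockout-labelled array and 4.55 in the wild type-labelled array, below background on both, and no fold is given. Of the other sodium-phosphate cotransporter genes, the widely expressed Slc20a1 read 6.94 in the knockout-labelled array and 7.51 in the wild type-labelled array, a difference of -0.56. Slc34a1, the renal transporter, read 5.51 in the knockout-labelled array and 5.88 in the wild type-labelled array.

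Etv5, an ETS transcription factor of the PEA3 group that maintains type 2 cells, has 2 rows that did not read alike. One row read 9.40 in the knockout-labelled array and 8.91 in the wild type-labelled array, a difference of 0.48, or 1.40-fold. The other row read 4.84 on both arrays, below background, and identical values on both arrays were found in 2.47% of all rows. Their mean was 7.12 in the knockout-labelled array and 6.88 in the wild type-labelled array, which gives the 1.18-fold difference above. Its relatives Etv4 and Etv1 were below background on both arrays, so Etv5 was the one detected gene of its group.

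**Figure D3:**
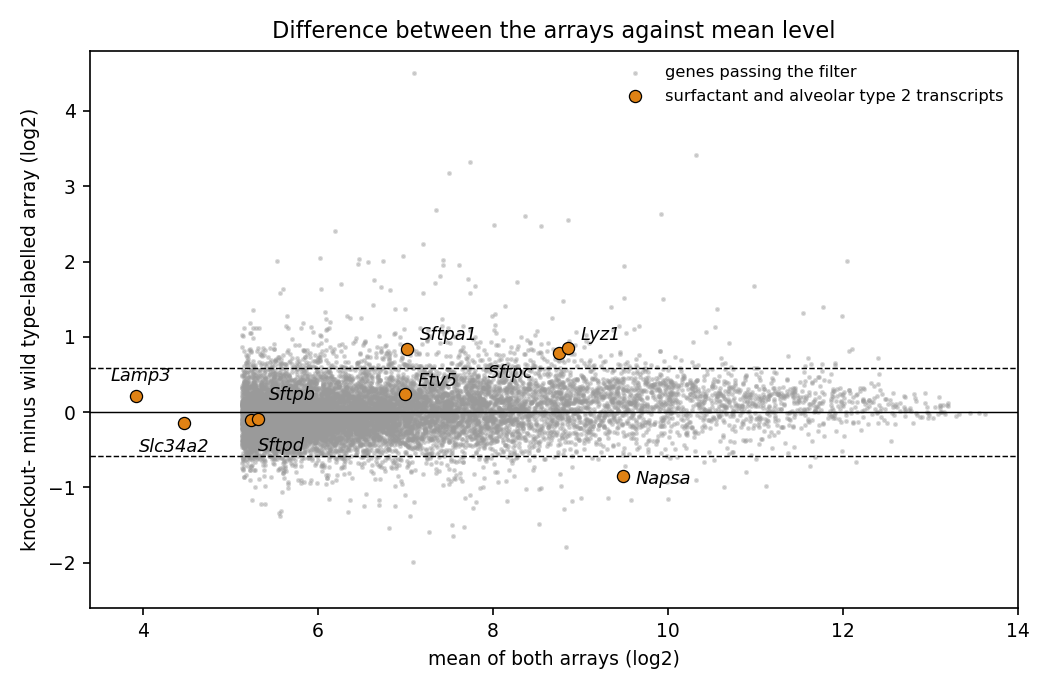
Difference between the arrays (knockout minus wild type, log2, vertical axis) against the mean of both arrays (log2, horizontal axis) for the 12516 genes that passed the filter (grey) and the 9 transcripts (orange), of which Lamp3 and Slc34a2 did not pass. Dashed lines mark 1.5-fold; Sftpa1, Sftpc and Lyz1 lie above the upper line, Napsa below the lower one and the other 5 between.

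A longer list of type 2 genes did not, as a whole, read higher with Sftpa1, Sftpc and Lyz1. Of 25 further genes expressed in type 2 cells, 9 read higher, 15 lower and 1 the same, with a median difference of -0.08. The chemokine gene Cxcl15, also called lungkine and made by lung epithelium, was the one at least 1.5-fold higher, at 6.86 in the knockout-labelled array and 5.94 in the wild type-labelled array (1.89-fold). Lgi3 was the one at least 1.5-fold lower as read, though not when measured from background. Cebpa, a transcription factor of both type 2 and myeloid cells, read 7.54 in the knockout-labelled array, a difference of -0.46. Zdhhc3, a palmitoyltransferase, read 6.58 in the knockout-labelled array and 6.97 in the wild type-labelled array. Only 12 of the 25 lay above background on both arrays. Among those 12, Chil1 and Sfta2 differed by 0.38 and 0.27, and Muc1 and Foxa2 by -0.33 and -0.23.

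Of 17 measured genes of surfactant lipid synthesis and packaging, many of them active in other cells too, 12 lay above background on both arrays. Chpt1 and Pcyt1a, enzymes of phosphatidylcholine synthesis, read 8.27 and 7.44 in the knockout-labelled array and 7.87 and 7.13 in the wild type-labelled array. Abca3 and Lpcat1, which are more particular to surfactant, lay above background by 0.08 and 0.47 in the knockout-labelled array. In the wild type-labelled array they lay 0.20 and 0.60 above it. Abca3, the lipid transporter of the lamellar body, read 5.39 in the knockout-labelled array and 5.57 in the wild type-labelled array. Lpcat1, an acyltransferase that remodels surfactant phosphatidylcholine, read 5.77 in the knockout-labelled array and 5.98 in the wild type-labelled array. Cldn18, a claudin of alveolar epithelium, was below background on both. Of the 25 genes, 12 lay above background in the knockout-labelled array and 14 in the wild type-labelled array, among them Ctsh, Elovl1 and Cebpa, which are also expressed outside the epithelium.

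Markers of other lung cells were measured beside these genes, since a sorted population can hold a few other cells or their RNA. In bulk RNA of this kind, fewer cells of a type and less RNA per cell cannot be told apart. Airway epithelium genes read higher in the knockout-labelled array in 10 of 14, with a median difference of 0.40, and 6 differed by 1.5-fold or more, all of them upward. The other 4 read lower, and none of these lay above background on both arrays. Bpifa1, a secreted airway protein, read 9.78 in the knockout-labelled array and 7.32 in the wild type-labelled array. Reg3g, an antimicrobial lectin of mucosal epithelium, read 7.44 in the knockout-labelled array and 5.47 in the wild type-labelled array. The secretoglobin genes Scgb3a1 and Scgb3a2 were 2.77-fold and 1.99-fold higher. Scgb1a1, the abundant club cell secretoglobin, read 12.39 in the knockout-labelled array and 12.26 in the wild type-labelled array. The mean log2 level of the airway list was 7.02 in the knockout-labelled array and 6.43 in the wild type-labelled array, with members between 3.99 and 12.39 in the knockout-labelled array and between 3.95 and 12.26 in the wild type-labelled array.

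Alveolar type 1 genes, of the flat cells that line the alveolus, had a median difference of 0.08 over 15 genes, with 8 higher, 6 lower and 1 equal. Of them, 7 lay above background in the knockout-labelled array and 4 in the wild type-labelled array. Pdpn read 8.35 in the knockout-labelled array and 7.83 in the wild type-labelled array, and Cav1, at background in the wild type-labelled array, was at least 2.17-fold higher in the knockout-labelled array. Ager, a defining type 1 transcript, read 7.05 in the knockout-labelled array and 7.12 in the wild type-labelled array.

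Genes shared by all epithelia had a median of 0.10 over 12, with 7 higher and 5 lower. Of the 12, 8 lay above background in the knockout-labelled array and 6 in the wild type-labelled array. Epcam, the epithelial adhesion molecule, had the largest difference of the list. It read 6.09 in the knockout-labelled array and 8.09 in the wild type-labelled array, 3.98-fold lower. The claudin gene Cldn3, at background in the wild type-labelled array, was at least 1.40-fold higher in the knockout-labelled array. Krt8 and Krt7, keratins of simple epithelium, read 0.26 and 0.43 higher in the knockout-labelled array. Krt19 and Cdh1 of the same list were above background on both arrays and nearly level. Krt19 read 11.44 in the knockout-labelled array and 11.45 in the wild type-labelled array, and Cdh1 read 8.64 and 8.74. Epcam thus read lower together with Napsa, and opposite to Sftpa1, Sftpc and Lyz1. Which cells the Epcam, Krt19 and Cdh1 signals came from was not tested.

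Neutrophil genes read higher in the knockout-labelled array in 8 of 9, with a median of 0.64, and all 9 lay above background on both arrays. Camp read 8.56 in the knockout-labelled array and 7.47 in the wild type-labelled array. Retnlg, Ly6g and Mmp8 differed by 0.93, 0.78 and 0.70, and Csf3r was the one that read lower. The mean log2 level of the neutrophil list was 8.45 in the knockout-labelled array and 7.94 in the wild type-labelled array. Fibroblast genes had a median of 0.18 over 8, led by Inmt at 0.77, and 3 lay above background on each array. Endothelial genes had a median of -0.09 over 8, and 3 lay above background in the knockout-labelled array and 2 in the wild type-labelled array. Most airway epithelial and neutrophil transcripts thus read higher in the knockout-labelled array, as Sftpa1, Sftpc and Lyz1 did. Of the genes passing the filter, 48.9% read higher in that array and 4.45% were at least 1.5-fold higher. Whether airway epithelial and neutrophil transcripts had a part in the differences of Sftpa1, Sftpc and Lyz1 was not tested.

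**Figure D4:**
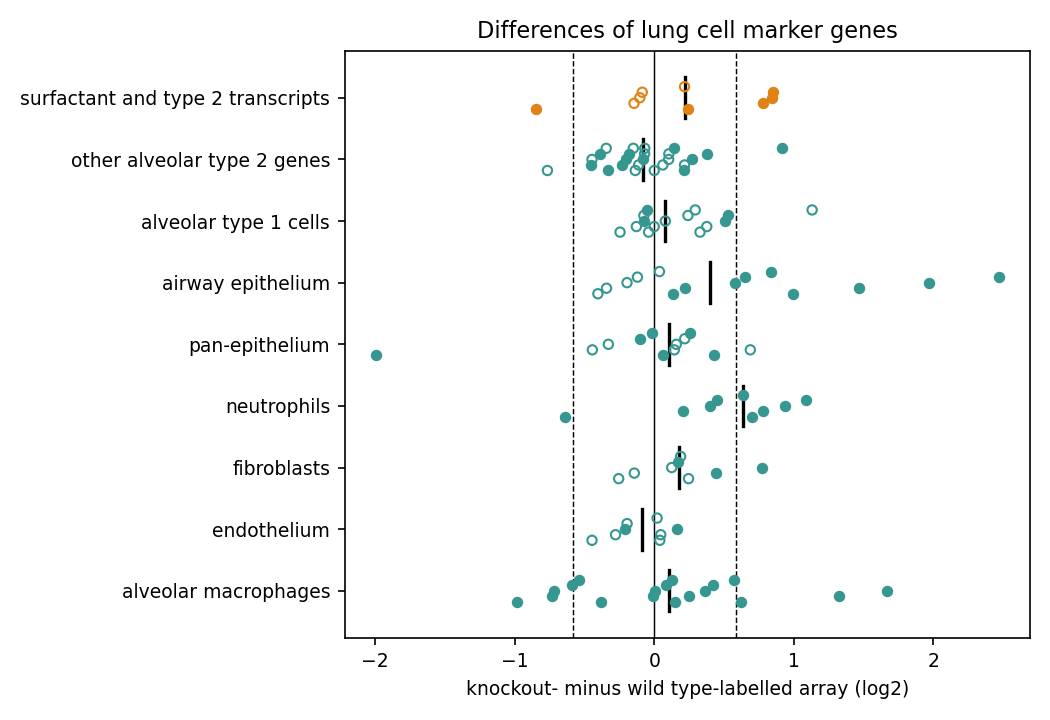
Difference between the arrays (knockout minus wild type, log2, horizontal axis) of each gene in 9 marker lists, with the 9 surfactant and type 2 transcripts in orange. Filled points lie above background on both arrays and open points do not, black bars are list medians over all measured genes and dashed lines mark 1.5-fold; the medians are 0.22 for the surfactant and type 2 transcripts, 0.40 for airway epithelium, 0.64 for neutrophils and -0.08 for other alveolar type 2 genes.

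With 2 arrays the pattern of a gene is a single difference, so likeness to the 9 transcripts is only closeness to their median of 0.22. That median is the value of Lamp3, which was below background on both arrays. It lay far from the differences of the detected Sftpa1 (0.84), Sftpc (0.78), Lyz1 (0.85) and Napsa (-0.84). Among the epithelial genes that passed the filter, the 3 closest to the median were S100g, Bpifb1 and Krt8. S100g, a calcium-binding protein gene of type 2 cells and intestine, differed by 0.21, Bpifb1, a secreted airway protein, by 0.22 and Krt8 by 0.26.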

How the data were processed

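The authors deposited log2 values of 41345 rows on 2 arrays, and the submitters' processing notes name RMA as the method. It subtracts background, quantile-normalises the arrays and reduces each row's probes to one value. RMA's version and the genome build were not given in the sources used here. A base of 2 was inferred from RMA and from the range of values. Rows were named through the platform annotation: 23521 had 1 symbol, 1814 several and 16010 were not listed. Rows of a gene were averaged. No row with several symbols named any of the 9 transcripts, and all 9 symbols matched a RefSeq table (GRCm38.p6) by Entrez identifier.

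With 1 array per genotype no test was made. The filter was a mean of at least 5.13, the median of all rows, and the local spread was taken in 20 bins. "At least" folds are measured from background. The code was tested on simulated data. All 9 transcripts were named. Others could be named from the 4 genes of each list with the largest differences among those passing the filter (not all are printed), the family relatives, Pikfyve, Lyz2 and the 3 nearest epithelial genes. Abca3, Lpcat1, Chpt1, Pcyt1a, Nkx2-1, Foxa1, Foxa2, Cldn18, Ctsh, Elovl1, Scgb1a1, Ager, Itgax, Csf3r, Csf2ra, Csf2rb2 and Pparg were named after their values were seen. Krt19, Cdh1, Chil1, Sfta2 and Muc1 were also named after their values were seen. The transcripts and lists were chosen with earlier results of these data known. Analyses used Python 3.11.15, pandas 2.3.3 and statsmodels 0.14.6. The number of arrays limits the precision.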

Additional observations from a re-analysis of the deposited data

How the results depend on the processing

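The alternatives were 3 filters (none, the 75th percentile of all rows, the receptor genes' 95th percentile), centring by median or by loess (span 0.3), quantile normalisation, adding 32 to the linear signal, taking the brightest row of a gene, a fold of 2 and the 99th percentile of receptor genes as background; a filter at the median of all rows was added after seeing the data. Sftpa1 ranged from 0.68 to 0.85, Sftpc from 0.69 to 0.79, Lyz1 from 0.76 to 0.86 and Napsa from -0.95 to -0.81, all beyond 1.5-fold throughout. The median of the 9 moved to 0.78 with the filter at the 75th percentile of all rows or at the receptor genes' 95th percentile, which each left 5 members, and fell to 0.07 with 32 added. At a fold of 2, 0 members were higher and 0 lower. Etv5 read 0.48 from its brightest row, against 0.24 from the mean. The 5 detected members stayed above background at the 99th percentile. No paired analysis was possible because each genotype has 1 array. Members near background, Sftpb and Sftpd, have no measurable fold at this signal.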

Other observations

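Genes for receptors and clearance of surfactant in macrophages held one large difference. Cd93, a membrane lectin once proposed as a receptor for SP-A and complement C1q, read 7.12 in the knockout-labelled array and 5.41 in the wild type-labelled array, 3.27-fold higher, with the wild type value just above background. It was the one of 13 collectin receptor genes at least 2-fold apart. Sirpa, which binds the heads of lung collectins, read 7.91 in the knockout-labelled array and 8.48 in the wild type-labelled array, and Tlr2 read 9.51 in the knockout-labelled array and 10.04 in the wild type-labelled array. Ly96, the MD-2 partner of Tlr4, read 10.73 in the knockout-labelled array and 10.17 in the wild type-labelled array.

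Surfactant clearance genes had a median difference of 0.12 over 20, with 11 higher and 9 lower. Csf2rb and Csf2ra encode chains of the receptor of GM-CSF, the cytokine that macrophages need to clear surfactant. Csf2rb read 6.48 in the knockout-labelled array and 6.94 in the wild type-labelled array. Its difference of -0.46 was beyond the local spread of 0.275. Csf2ra read 8.35 in the knockout-labelled array and 8.59 in the wild type-labelled array. Its difference of -0.24 lay inside the local spread of 0.332. Csf2rb2 was below background on both. Pparg, its downstream transcription factor, read 10.68 in the knockout-labelled array and 10.53 in the wild type-labelled array. Lpl, a lipase, read 11.27 in the knockout-labelled array and 11.99 in the wild type-labelled array, and Fabp4, a fatty acid binding protein, read 12.22 in the knockout-labelled array and 11.60 in the wild type-labelled array. Gm2a, a lysosomal lipid-binding cofactor, differed by 0.55. Surfactant lipid synthesis genes had a median of -0.13 over 17, with the fatty acid binding gene Fabp5 at 0.72, the lipid exporter gene Abca1 at -0.46 and Srebf1, which drives fatty acid synthesis, at -0.43. Acaca, an enzyme of fatty acid synthesis at background in the knockout-labelled array, was at least 1.10-fold lower.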
